A study of Macaca fascicularis with 16 samples.

Results

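The genes described here are 9 members of the bone morphogenetic protein (BMP) pathway in the endometrium of postmenopausal cynomolgus macaques: the ligands BMP2, BMP4 and BMP7, the receptors BMPR1B, BMPR1A and BMPR2, and the secreted antagonists CHRDL2, GREM1 and FST. They were chosen by name as a family, with earlier results of the same arrays in view, so every comparison of theirs between arms is a description: no p-value of a member is given, and counts of members past a threshold are printed beside the share of all genes and support nothing. An array measures a gene through probe sets, and a gene was followed through those annotated with its symbol alone. Of the 9 genes, 7 had such a probe set, 15 in all, out of 52865 on the array; BMPR1A and BMPR2 had none and were not analysed here. A filter on dim probe sets kept 12 of the 15 and 6 of the 7 genes, and left out both probe sets of GREM1 and 1 of FST.

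The study randomized 16 females to 4 arms of 4 animals, with 1 array an animal and 4 months of treatment. The control arm received placebo. The estradiol arm received 0.25 mg of micronized estradiol in every 1800 kcal of diet, the tamoxifen arm received 20 mg of tamoxifen in the same amount of diet, and the combination arm received both at these doses. Estradiol is the main ovarian estrogen, and tamoxifen is a selective estrogen receptor modulator that acts on the uterus partly as an estrogen. The labels give no ages. Signals are MAS5 values on a linear scale from a rhesus macaque array. Differences are between arm means of log2(signal + 4.803), each with the standard error (SE) of the fit and with 4 arrays in each arm, and a difference on this scale understates the change of dim genes. Levels of different probe sets are not on 1 scale and were not compared.

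BMPs are secreted dimers that bind type I and type II receptor kinases, and the receptors phosphorylate Smad proteins, which enter the nucleus and switch on genes such as those of the ID family. Extracellular antagonists bind the ligands and keep them from the receptors. In the uterus the pathway takes part in the preparation of the stroma for implantation, in gland function and in the exchange between epithelium and stroma. The samples were whole pieces of frozen endometrium, so a lower signal from fewer cells of a type and from less RNA per cell cannot be told apart.

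Arrays differed in tissue makeup, within and between arms. A marker score is the mean, over the markers of a cell type, of the log2 value minus that marker's mean over the 16 arrays. The smooth muscle score, from 13 markers, was -3.47 on estradiol array 4 and -0.91 on tamoxifen array 1, and lay between -0.031 and 0.70 on the other 14 arrays. The epithelium score, from 10 markers, lay between -0.72 and -0.64 in controls and reached 0.90 on estradiol array 4 and 0.89 on tamoxifen array 1. The stromal fibroblast score, from 16 markers, lay between -0.51 and -0.37 in controls and between 0.22 and 0.47 in the estradiol arm. The T and NK cell score, from 7 markers, lay between 0.26 and 0.83 in controls, between -0.24 and 0.38 with estradiol, between -0.27 and -0.10 with tamoxifen and between -0.88 and -0.12 with the combination. Of these markers 0 passed with estradiol, where 16.5% of all genes rose and 13.2% fell. With tamoxifen 3 fell, beside 7.64% of all genes, and with the combination 4 fell, beside 9.09%. The log2 ratio of the 3' to the 5' actin probe set, a sign of RNA quality, lay between 0.76 and 1.02 in controls and between 0.41 and 0.83 in the 3 treated arms. The part of these differences in the results below was not tested, and values without estradiol array 4 or tamoxifen array 1 are given where they matter.

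BMPR1B is a type I receptor for BMPs, and female mice that lack it are infertile. Its single probe set (MmugDNA.2476.1.S1_at) read 86.9, 47.7, 56 and 66 on control arrays 1 to 4. In the estradiol arm it read 146, 225, 147 and 238. The estradiol values all lay above the highest control, and the groups did not overlap. With tamoxifen it read 264, 80.4, 75.2 and 84.4: array 1 stood far above the other 3, which overlapped with the controls. With the combination it read 128, 150, 138 and 134, a narrow band above every control. The order of the arm means was estradiol, combination, tamoxifen, control.

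On the log2 scale BMPR1B was higher than in controls by 1.49 (SE 0.32) with estradiol, a ratio of 2.8 on that scale. It was higher by 1.07 (SE 0.32) with the combination and by 0.74 (SE 0.32) with tamoxifen. The tamoxifen difference was 0.33 without tamoxifen array 1. The combination mean lay below the estradiol mean by 0.41 (SE 0.32), and the combination arrays overlapped with the lowest estradiol arrays. The combination lay 0.33 (SE 0.32) above tamoxifen, a difference of about its standard error, which became 0.75 without tamoxifen array 1.

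**Figure D1:**
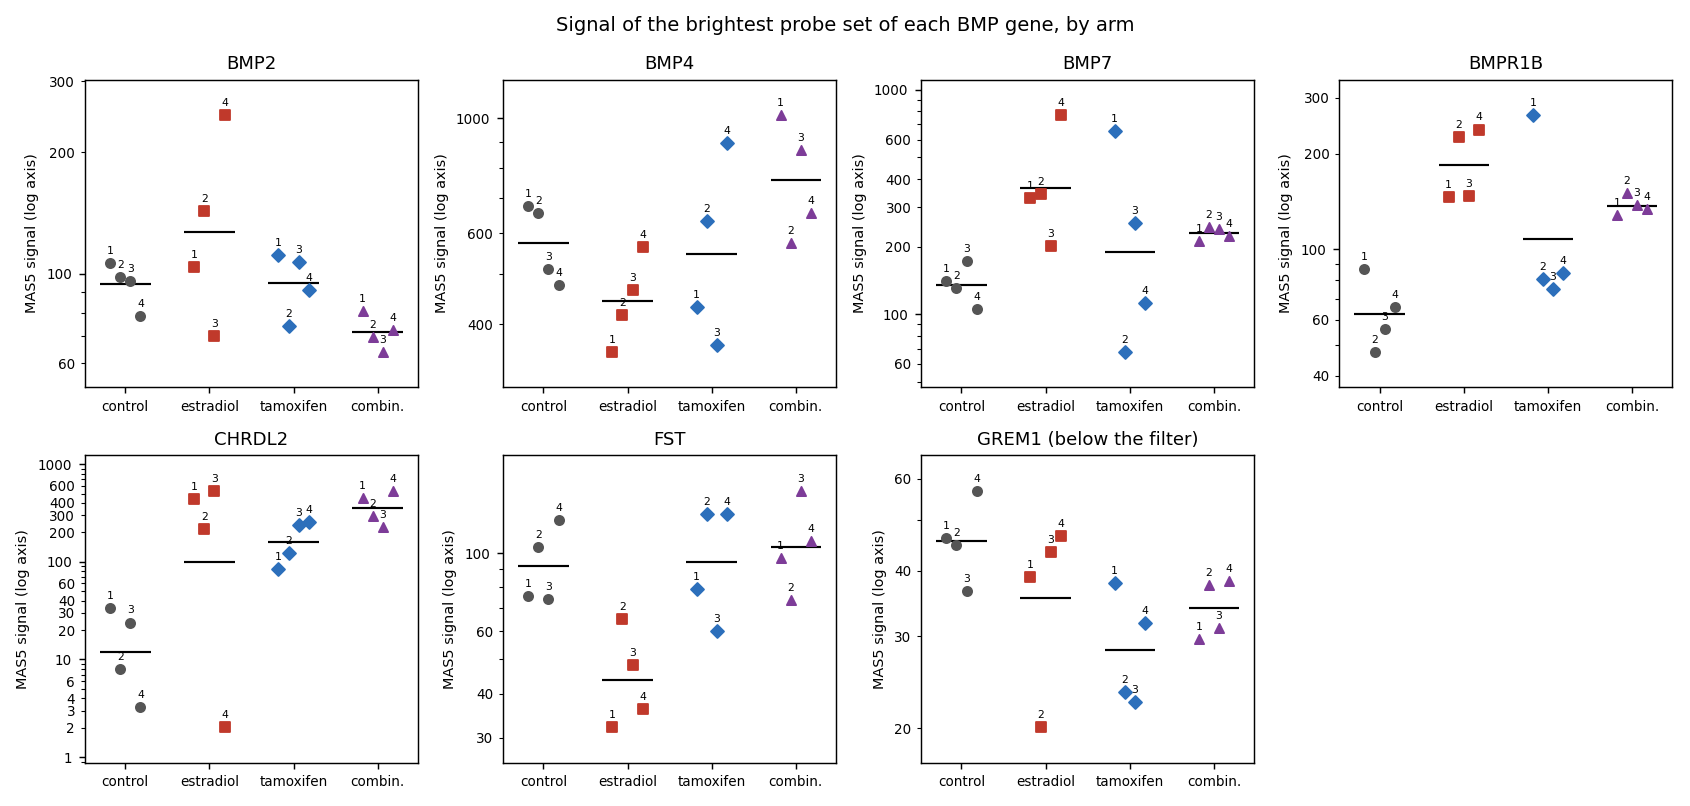
MAS5 signal (log axis) of the member genes by arm, 1 point per array with its replicate number; the horizontal line is the geometric mean of the 4 arrays. BMPR1B in the estradiol and combination arms lies above every control, CHRDL2 on estradiol array 4 reads 2.02 against 219 to 528 on the other 3, and FST is low in the estradiol arm.

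The brightest probe set of the ligand BMP7 had the same arm order as BMPR1B, with a wider spread. BMP7 is a ligand best known for its roles in kidney and bone formation. Its brightest probe set read 141, 131, 172 and 105 in controls and 329, 344, 202 and 770 with estradiol. These groups did not overlap, and estradiol array 4 was the highest of all 16. With tamoxifen it read 657, 68.1, 254 and 112, so that 1 array lay below all controls and another lay above 3 of the 4 estradiol arrays. With the combination it read 211, 245, 240 and 222, all above the controls and close together.

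The log2 difference of BMP7 from control was 1.40 (SE 0.51) with estradiol, 0.48 (SE 0.51) with tamoxifen and 0.74 (SE 0.51) with the combination. Without tamoxifen array 1 the tamoxifen difference was -0.11, so its direction rested on that array. Without estradiol array 4 the estradiol difference was 1.04. BMP7 is covered by 5 probe sets, and they disagreed. Probe sets 2, 3 and 5, numbered by mean log2 value, gave 1.83, 2.34 and 1.13 for estradiol, while probe set 4 gave 0.17 and read 38.2 to 82.4 with estradiol against 44 to 61.2 in controls. Probe set 2 kept the arm order of the brightest, while probe sets 3 and 5 did not put the combination above tamoxifen. Probe set 4 put tamoxifen, at 5.78, and the combination, at 5.65, below the control mean of 5.82. Probe sets 3 and 5 had control means under the filter's limit of 5.36 and passed it through the treated arms.

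The brightest BMP7 probe set had the array order of the epithelium score in most arms. In 3 of 4 arms, estradiol, tamoxifen and combination, the 4 arrays had the same order in both, and in the control arm they did not. The other probe sets of BMP7 had that order in fewer arms: 2 of 4 for probe sets 2 and 5, 1 for probe set 3 and 0 for probe set 4. In the estradiol arm the order of the brightest probe set was array 4, 2, 1, 3, with epithelium scores of 0.90, 0.43, 0.0036 and -0.18. BMPR1B had the order of the epithelium score in 1 arm, the combination. The part of epithelial content in these signals was not tested.

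BMP4 is a ligand expressed by mesenchyme in many organs. Its probe set read 677, 657, 511 and 476 in controls and 354, 417, 465 and 565 with estradiol. With tamoxifen it read 431, 633, 364 and 894, across the range of both. With the combination it read 1014, 574, 869 and 657. The lowest combination array, 574, was above the highest estradiol array, 565, by a small margin.

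BMP4 thus stood lower than control by 0.37 (a log2 difference of -0.37, SE 0.25) with estradiol and higher by 0.40 (SE 0.25) with the combination, while tamoxifen gave -0.07 (SE 0.25). The combination lay above estradiol by 0.77 (SE 0.25), and above tamoxifen by 0.47 (SE 0.25). The interaction, which is the effect of estradiol on top of tamoxifen minus its effect without tamoxifen, was 0.84 (SE 0.36). Leaving out 1 array at a time moved the difference between combination and estradiol between 0.63 and 0.90.

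BMP2 is the ligand that the mouse uterus needs for the decidual response of its stroma. Its brighter probe set read 106, 98.3, 96.1 and 78.7 in controls and 104, 143, 69.9 and 247 with estradiol. It read 111, 74.1, 107 and 91.2 with tamoxifen and 80.7, 69.8, 64.1 and 72.4 with the combination. Estradiol arrays 3 and 4 were the lowest and the highest of their arm, and the arms overlapped in all comparisons with control. The difference from control was 0.41 (SE 0.27) with estradiol, 0.0084 (SE 0.27) with tamoxifen and -0.38 (SE 0.27) with the combination. The combination stood below estradiol by a log2 difference of -0.79 (SE 0.27), which ranged from -1.06 without estradiol array 3 to -0.48 without estradiol array 4. The other probe set gave 0.40, -0.18 and -0.36 against control, in the same order of arms. For the brighter BMP2 probe set the arrays stood in the order of the epithelium score in the estradiol and tamoxifen arms. For the other probe set they did so in no arm.

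CHRDL2, chordin-like 2, is a secreted antagonist of the chordin family that binds BMPs. Its single probe set (MmugDNA.36924.1.S1_at) was near the bottom of the scale in controls, at 33.6, 7.95, 23.9 and 3.24. With estradiol it read 435, 219, 528 and 2.02: 3 arrays were far above every control, and array 4 was below all of them. With tamoxifen it read 83.9, 124, 236 and 257, and with the combination 447, 292, 227 and 532. These 8 arrays all lay above the highest control.

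The log2 difference of CHRDL2 from control was 2.91 (SE 1.02) with estradiol, 3.16 (SE 1.02) with tamoxifen and 4.29 (SE 1.02) with the combination. Without estradiol array 4 the estradiol difference was 4.35, the combination lay -0.057 from estradiol in place of 1.39 (SE 1.02), and tamoxifen lay -1.19 from estradiol in place of 0.25 (SE 1.02). The order of these 3 arms therefore rested on that array. The control mean, 4.20, was under the limit of the filter, so CHRDL2 passed it through the treated arms, and control values so low are noisy.

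Estradiol array 4 is the array with a smooth muscle score of -3.47, and its epithelium score was the highest of its arm. In the estradiol arm, arrays 3, 1, 2 and 4 had this order for both CHRDL2 and the smooth muscle score. The lowest CHRDL2 signal of the tamoxifen arm was on array 1, which also had the lowest smooth muscle score of that arm. In the control, tamoxifen and combination arms the orders of all 4 arrays differed, and control arrays with smooth muscle scores between -0.023 and 0.28 read at most 33.6 for CHRDL2. The match was not particular to smooth muscle. The endothelium score had the CHRDL2 order in the estradiol arm too. The macrophage score had it in the tamoxifen and combination arms, and the T and NK cell score in the combination arm. Estradiol array 4 and tamoxifen array 1 were also the lowest of their arms for the stromal fibroblast, endothelium, T and NK cell and macrophage scores. The part of smooth muscle or of other cell types in the CHRDL2 signal was not tested.

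FST, follistatin, binds activins tightly and some BMPs less so, and keeps both from their receptors. Its brightest probe set read 75.5, 104, 74 and 124 in controls and 32.1, 65, 48.1 and 36.1 with estradiol, with every estradiol array below every control. It read 79.1, 129, 60.2 and 129 with tamoxifen and 96.9, 73.7, 150 and 108 with the combination. The combination arrays all lay above the highest estradiol array, and both the tamoxifen and the combination arrays overlapped with the controls.

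FST was lower than in controls with estradiol, by a log2 difference of -1.0 (SE 0.29). The difference was 0.034 (SE 0.29) with tamoxifen and 0.16 (SE 0.29) with the combination. The combination lay above estradiol by 1.16 (SE 0.29), and tamoxifen lay above estradiol by 1.03 (SE 0.29). The other probe sets ran the same way for estradiol: the next brightest gave -1.15 (SE 0.35) and the dim one that the filter left out gave -1.51. For combination against estradiol these gave 1.21 and 1.59. On estradiol array 4, apart in tissue makeup, FST read 36.1, within the range of that arm.

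GREM1, gremlin 1, is an antagonist of BMP2, BMP4 and BMP7. Both its probe sets were below the filter. The brighter read 46.2, 44.8, 36.6 and 56.9 in controls, 39, 20.1, 43.5 and 46.7 with estradiol, 37.9, 23.5, 22.5 and 31.8 with tamoxifen and 29.7, 37.6, 31.1 and 38.3 with the combination. Every arm overlapped with the controls, and the differences from control were -0.31, -0.61 and -0.38 in that order of arms. The other probe set lay between 3.16 and 14.3 on all arrays, where MAS5 values carry little information.

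**Figure D2:**
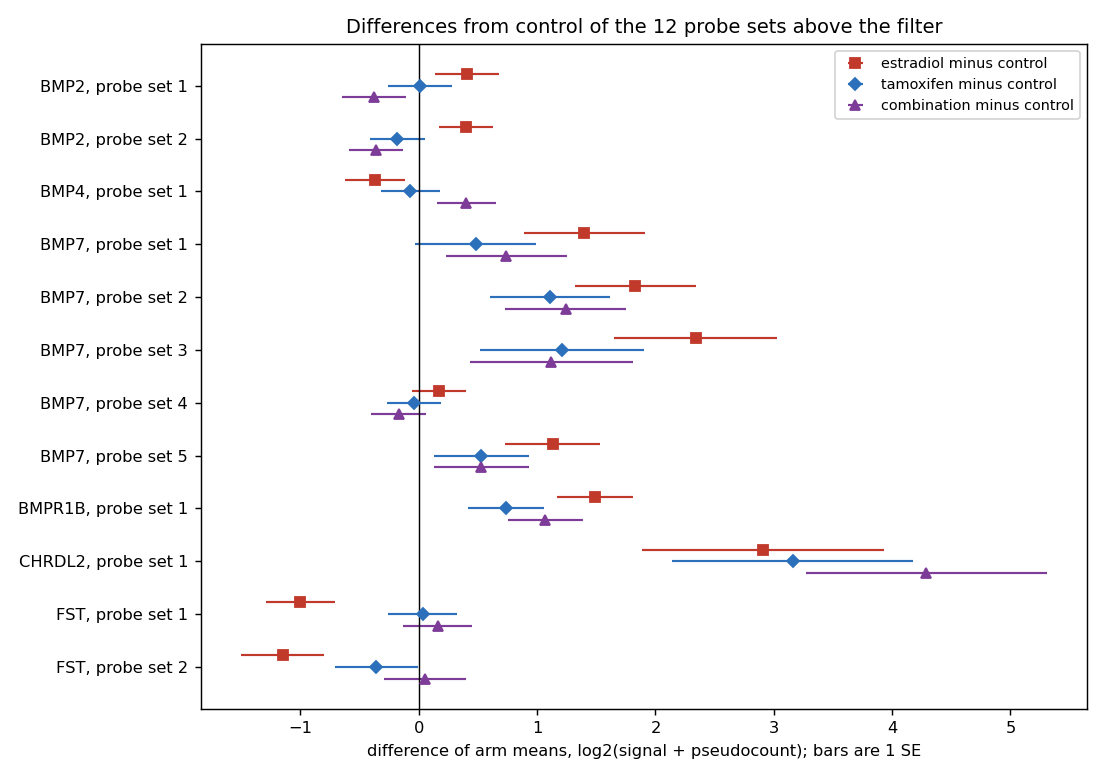
Log2 difference from control of the 12 kept probe sets of the member genes in each treated arm, with bars of 1 standard error. BMPR1B and CHRDL2 lie to the higher side in all 3 treated arms, FST lies to the lower side with estradiol at -1.0, and probe set 4 of BMP7 lies near 0 at 0.17 where the other probe sets of that gene do not.

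Set against all 10706 genes followed, and with nothing read from it since the members were chosen with these contrasts known, the members past an adjusted p of 0.05 (limma, Benjamini-Hochberg) were as follows. With estradiol against control 2 of the 6 kept members passed as higher, BMPR1B and CHRDL2, where 16.5% of all genes did, and FST passed as lower, where 13.2% of all genes did. Arrays did not overlap for 3 members, BMP7, BMPR1B and FST, and for 28.4% of all genes. With the combination against control 2 members passed as higher, BMPR1B and CHRDL2, beside 10.6% of all genes, and 0 as lower, beside 9.09%. There the arms did not overlap for 3 members, BMP7, BMPR1B and CHRDL2, and for 29.1% of all genes.

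With tamoxifen against control 0 members passed in either direction in limma, beside 8.59% of genes higher and 7.64% lower; 2 had an unadjusted p under 0.05, as did 33.6% of all genes, and CHRDL2 alone did not overlap, as 22.7% of all genes did not. Between combination and estradiol 0 members passed, beside 0.448% of genes higher and 0.878% lower; 3 had an unadjusted p under 0.05, as did 17.9% of all genes, and 2, BMP4 and FST, did not overlap, beside 10.4% of genes. Between combination and tamoxifen 0 members passed, beside 0% of genes higher and 0% lower; 0 members had an unadjusted p under 0.05, as did 3.7% of all genes, and 0 did not overlap, beside 2.92% of genes. Between tamoxifen and estradiol 0 members passed, beside 0.149% of genes higher and 0.56% lower, and 2 had an unadjusted p under 0.05, as did 14.6% of all genes. For the interaction 0 members passed, beside 4.77% of genes higher and 6.55% lower, and 3 had an unadjusted p under 0.05, as did 29.1% of all genes.

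Which members passed moved with the settings, in both directions, so the counts describe 1 setting and support nothing. The BMPR1B call with estradiol and the CHRDL2 call with the combination were kept in 17 of 17 alternatives, and the other calls were not. Over 17 alternatives the BMPR1B call with the combination was lost without control array 2, 3 or 4 and without any 1 of the combination arrays. The CHRDL2 call with estradiol was lost in 12, among them without any 1 of the control arrays or estradiol array 1, 2 or 3, and the FST call with estradiol without control array 4 or estradiol array 1. Other members passed only elsewhere: BMP7 with estradiol in 4 of 17, among them the mean of its kept probe sets and without estradiol array 3, and its probe sets 2, 3 and 5 each passed by themselves. CHRDL2 with tamoxifen passed in 4 of 17, none of which leaves out a single array. The 17 leave out single arrays of the 2 arms compared only, so none left out a single estradiol array here. The CHRDL2 interaction passed without estradiol array 4. BMP2 with estradiol, between combination and estradiol and for the interaction passed without estradiol array 3, and BMPR1B between tamoxifen and estradiol without tamoxifen array 1. BMP7 with the combination passed when only the arrays of the arms compared were fitted.

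Beside the members, 80 other genes of the pathway were listed by role, of which 63 had a probe set of their own symbol and 49 passed the filter. These were tested. With estradiol 11 of the 49 rose, 8 fell and 30 did not pass, where 16.5% of all genes rose and 13.2% fell. With tamoxifen 7 rose and 1 fell, beside 8.59% and 7.64% of all genes, and with the combination 8 rose and 2 fell, beside 10.6% and 9.09%. The count for tamoxifen, 8 in all, was 3 without control array 1, 5 without control array 4 and 4 without tamoxifen array 1. That for the combination, 10 in all, was 5 without combination array 1 and 6 without combination array 2 or 3 or control array 1. Without estradiol array 4 and tamoxifen array 1 together, 18 genes passed with estradiol, 17 of them among the original 19, and 7 passed with tamoxifen, 5 of them among the original 8. With the combination 14 then passed, among them all 10 of the original.

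The target genes made up the longest list of changed genes, with 9 of the 19 that passed for estradiol, 6 of 8 for tamoxifen and 6 of 10 for the combination. Of 12 tested targets, 6 rose and 3 fell with estradiol, 5 rose and 1 fell with tamoxifen, and 5 rose and 1 fell with the combination, to be read against the same shares of all genes. The list, like the others, was chosen with earlier results of these arrays known, so its counts and medians are a description and support nothing. The median log2 difference of the list was 0.91 with estradiol, 0.59 with tamoxifen and 0.55 with the combination, where the medians of all genes were 0.012, -0.018 and -0.013. The homeobox gene MSX2, a target of BMP signalling in many epithelia, read 227, 143, 276 and 199 in controls and 895, 689, 538 and 1951 with estradiol. It read 1143, 429, 854 and 809 with tamoxifen and 942, 1055, 723 and 810 with the combination. No treated array of MSX2 overlapped with the controls.

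MSX2 rose by 2.10 (SE 0.35, adjusted p = 0.000693) with estradiol, 1.87 (SE 0.35, adjusted p = 0.00359) with tamoxifen and 2.06 (SE 0.35, adjusted p = 0.00158) with the combination. Its brightest other probe set gave 3.01, 2.85 and 3.01. MSX1, its relative in the uterine epithelium, rose by 1.67, 1.26 and 1.44 (adjusted p = 0.00193, 0.0195 and 0.00875). The tamoxifen call of MSX1 was lost without control array 1 or 2 or tamoxifen array 1. HEY1, a transcriptional repressor that answers both Notch and BMP signals, rose by 1.52, 0.90 and 1.06 (adjusted p = 0.000314, 0.0167 and 0.00621), and its tamoxifen call was lost without tamoxifen array 1.

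Among the ID genes, which encode inhibitors of DNA binding and are the classical direct targets of BMP Smads, genes stood in different directions. ID1 read 1119, 1392, 847 and 1973 in controls and 2413, 2416, 1773 and 3807 with estradiol, with 1 control above the lowest estradiol array. It rose by 0.98 (SE 0.26, adjusted p = 0.013) with estradiol, 0.90 (adjusted p = 0.0331) with tamoxifen and 0.87 (adjusted p = 0.0347) with the combination. The tamoxifen call was lost without control array 1 or 3 or tamoxifen array 1, 3 or 4, and the combination call without control array 1 or 3 or any 1 of the combination arrays. ID3 gave 0.28, 0.28 and 0.24 and did not pass; the mean of its kept probe sets turned the sign, with -0.076, -0.16 and -0.0043. ID4 read 3072, 2942, 3783 and 4098 in controls and 1631, 2006, 2722 and 1947 with estradiol, without overlap. ID4 fell by 0.75 (SE 0.21, adjusted p = 0.0173) with estradiol, a call lost without control array 4 or estradiol array 1, and gave -0.56 and -0.58 in the other arms, which did not pass, though the combination passed without combination array 4, at -0.73. ID2 had no probe set of its own symbol.

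SMAD6 and SMAD7 encode inhibitory Smads that feed back on the pathway. SMAD7 read 225, 172, 204 and 138 in controls and 319, 299, 276 and 449 with estradiol, with no overlap. It rose by 0.84 (SE 0.23, adjusted p = 0.0143) with estradiol and gave 0.10 with tamoxifen and 0.14 with the combination, which did not pass; the tamoxifen value was -0.12 without tamoxifen array 1. SMAD6 gave 0.14, -0.053 and -0.17 and did not pass in any of these, and its tamoxifen value was 0.084 without control array 3. DLX5, a homeobox gene, rose with the combination by 2.41 (SE 0.51, adjusted p = 0.00591). Its mean log2 value was 5.96 in controls, 7.19 with estradiol, 7.35 with tamoxifen and 8.37 with the combination. Estradiol and tamoxifen thus also stood above control, though these differences did not pass. ATOH8, a helix-loop-helix factor induced by BMPs in liver and endothelium, fell with estradiol by 0.86 (SE 0.18, adjusted p = 0.00325). The remaining targets counted above, WNT4 and RUNX2, are named after their values were seen. WNT4, a ligand of the Wnt family, rose by 2.09 with estradiol (adjusted p = 0.00522) and 1.53 with tamoxifen (adjusted p = 0.0451), where the call was lost without control array 1, 2 or 4 or tamoxifen array 1, 3 or 4. With the combination it did not pass. Of 17 alternatives, which leave out single arrays of these 2 arms only, it passed without control array 3, at 1.78. It also passed without estradiol array 4 and tamoxifen array 1 together, at 1.36. RUNX2, a factor of bone formation, fell by 0.91, 0.86 and 0.91 in the 3 arms (adjusted p = 0.0242, 0.0497 and 0.036), while its brightest other probe set gave -0.084, -0.48 and -0.28. The RUNX2 calls were lost in 5, 11 and 7 of 17 alternatives: with estradiol without control array 1 or 2 or estradiol array 1 or 3, with tamoxifen without any 1 of the control arrays or tamoxifen array 2, 3 or 4, and with the combination without control array 1, 2 or 4 or combination array 1 or 2.

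The array order of the targets that rose was set beside that of the epithelium score within arms. ID1, MSX1 and WNT4 arrays stood in the order of the epithelium score in 2 of 4 arms, estradiol and tamoxifen. HEY1 arrays did so in the estradiol arm and MSX2 arrays in the tamoxifen arm. SMAD7, which rose with estradiol, and DLX5, which rose with the combination, had that order in no arm. Of the 10 epithelial markers 5 rose and 0 fell with estradiol, 3 rose with tamoxifen and 5 rose with the combination. Of the 16 stromal fibroblast markers 10, 6 and 6 rose. The shares of all genes that rose were 16.5%, 8.59% and 10.6%. The part of these marker changes in the target genes was not tested. Without estradiol array 4 the estradiol differences were 1.73 for MSX2, 1.39 for MSX1 and 1.33 for HEY1, and these calls held.

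**Figure D3:**
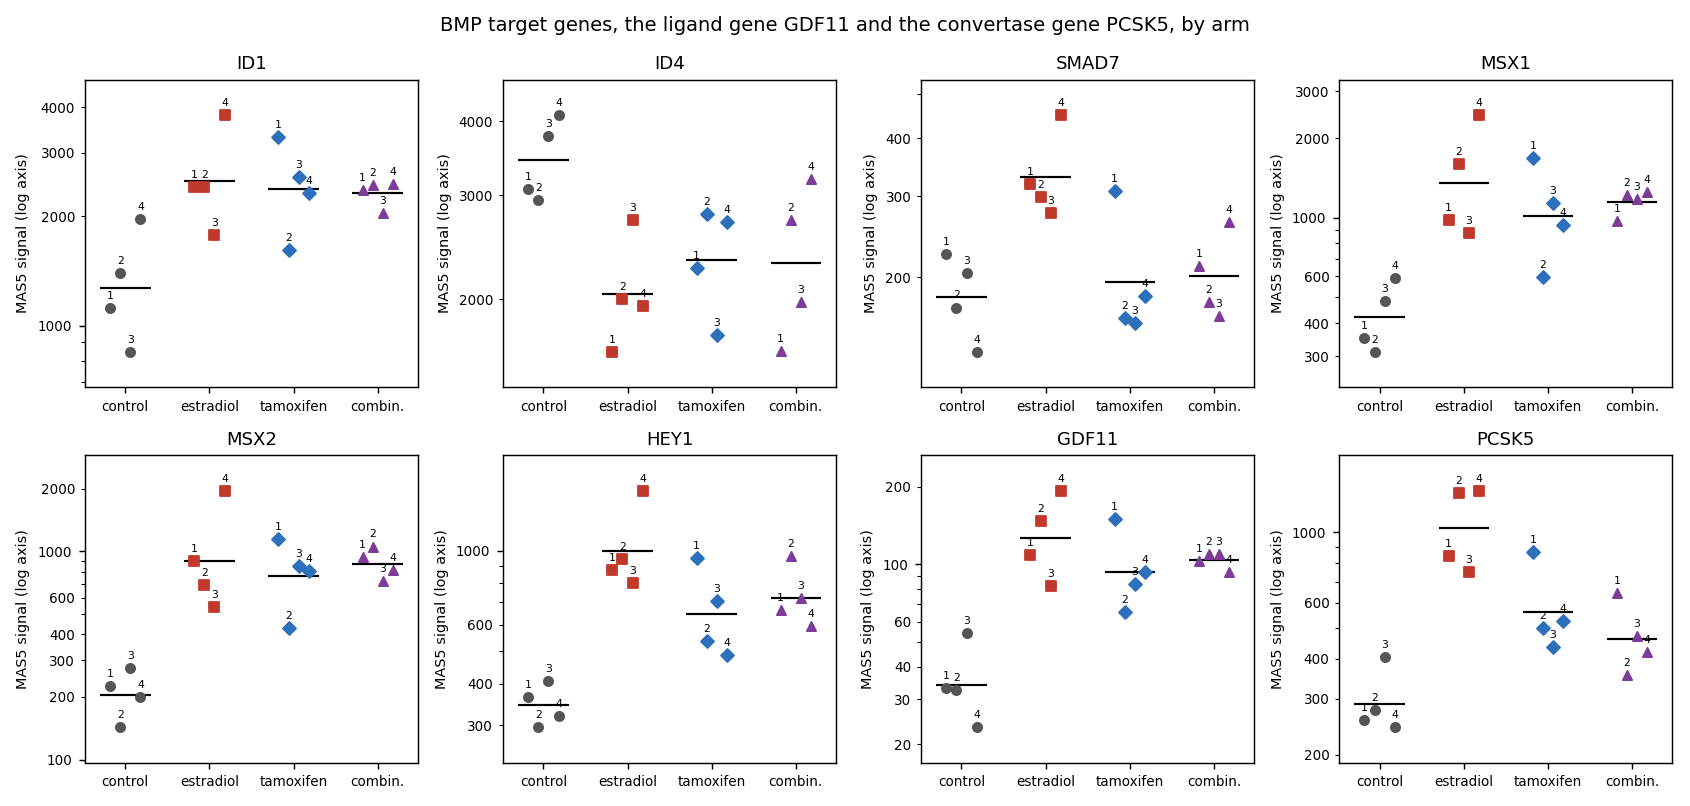
MAS5 signal (log axis) of 6 target genes, the ligand gene GDF11 and the convertase gene PCSK5, 1 point per array with its replicate number; the horizontal line is the geometric mean of the arm. GDF11 and MSX2 lie above every control in all 3 treated arms, and PCSK5 with the combination lies between 357 and 646 against 748 to 1348 with estradiol.

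Of the other ligands 6 passed the filter. GDF11, a ligand that signals through activin-type receptors, read 33, 32.4, 54 and 23.3 in controls, 109, 147, 82.8 and 193 with estradiol, 150, 65.2, 83.6 and 93.1 with tamoxifen and 103, 110, 110 and 93.6 with the combination. Every treated array lay above every control. GDF11 rose by 1.75 (SE 0.28, adjusted p = 0.00056) with estradiol, 1.33 (SE 0.28, adjusted p = 0.00727) with tamoxifen and 1.48 (SE 0.28, adjusted p = 0.00315) with the combination. Its control mean, 5.29, was under the filter's limit of 5.36, so GDF11 passed the filter through the arms where it was high; its calls against control held with no filter. INHBA, the subunit of activin A, which FST binds, fell with estradiol by 1.15 (SE 0.39, adjusted p = 0.041), with overlapping arms. That call was lost without control array 2, 3 or 4 and without estradiol array 1, 2 or 4. The other 4 ligands did not pass in any comparison.

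Proteases ripen the ligands or cut their antagonists. PCSK5, a convertase that cleaves the precursors of GDF11 and related proteins, read 258, 276, 405 and 244 in controls and 841, 1328, 748 and 1348 with estradiol. It read 869, 500, 437 and 526 with tamoxifen and 646, 357, 471 and 422 with the combination. PCSK5 rose with estradiol by 1.81 (SE 0.25, adjusted p = 0.000217) and with tamoxifen by 0.94 (adjusted p = 0.0234), a call lost without control array 1 or 4 or tamoxifen array 1. It was the 1 pathway gene of 49 that passed between combination and estradiol, where it fell by 1.15 (SE 0.25, adjusted p = 0.042). That call was lost in 12 of 17 alternatives, among them without any 1 of the combination arrays and without estradiol array 1, 2 or 4. Without control array 1 or 4 or tamoxifen array 4, which share in the estimate of the spread, it was lost as well.

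BMP1, the protease that cuts chordin and procollagen, rose by 0.70 (SE 0.16, adjusted p = 0.00602) with estradiol and 0.52 (adjusted p = 0.0398) with the combination. The combination call was lost without control array 1, 3 or 4 or combination array 1, 2 or 3. Its relative TLL1 fell with estradiol by 1.33 (SE 0.46, adjusted p = 0.0433), with overlapping arms. The TLL1 call was lost without control array 2, 3 or 4 or estradiol array 1, 2 or 4. With no filter it was also lost (limma, adjusted p = 0.065). Fitting only the arrays of the arms compared lost it as well (limma, adjusted p = 0.0718). The estradiol mean of TLL1, 4.79, was under the filter's limit of 5.36, so TLL1 passed the filter through the other arms.

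Of 12 other receptors and co-receptors, 1 rose and 2 fell with estradiol, beside 16.5% and 13.2% of all genes. In limma 0 passed with tamoxifen, where 3 had an unadjusted p under 0.05, as did 33.6% of all genes. With the combination 1 rose, beside 10.6% of all genes. ACVR1, another type I receptor for BMPs, rose with estradiol by 0.51 (SE 0.12, adjusted p = 0.00627). The activin receptor ACVR1B fell with estradiol by 0.39 (SE 0.12, adjusted p = 0.0301), a call lost without control array 1 or 2 or estradiol array 1, 2 or 4. The endothelial co-receptor ENG fell with estradiol by 0.88 (SE 0.25, adjusted p = 0.019), while its brightest other probe set gave 0.20, and the call was lost without control array 2 or estradiol array 4. Of 13 endothelial markers 7 fell with estradiol, beside 13.2% of all genes, and the part of this in the ENG signal was not tested. HJV, the co-receptor hemojuvelin, rose with the combination by 1.03 (SE 0.28, adjusted p = 0.0225), a call lost without control array 1 or 3 or combination array 1, 3 or 4.

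Of 6 other antagonists tested, CHRD, chordin itself, fell by 0.44 (SE 0.13) with estradiol and with the combination (adjusted p = 0.0208 and 0.0301). The estradiol call was lost without control array 2 or 3 or estradiol array 1 or 3, and the combination call without control array 2 or 3 or any 1 of the combination arrays. CHRDL1, the closest relative of CHRDL2 on the list, did not pass; it was named after its values were seen. CHRDL1 read 219, 210, 299 and 4.14 with estradiol, so that array 4 was low for both genes, and 48.6, 73.6, 122 and 152 in controls. With tamoxifen it read 110, 424, 207 and 645, overlapping with the controls. With the combination it read 289, 197, 412 and 230, all above the highest control. Of 9 Smad transducers and regulators, PPM1A, a phosphatase of Smads, rose with estradiol by 0.40 (SE 0.10, adjusted p = 0.0071). Its brightest other probe set gave -0.12, and the mean over its probe sets gave -0.016.

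Between combination and tamoxifen 0 of 49 pathway genes passed in limma, and 4 had an unadjusted p under 0.05, as did 3.7% of all genes. Between tamoxifen and estradiol 0 passed, and 5 had an unadjusted p under 0.05, as did 14.6% of all genes; without tamoxifen array 1 the count was 2. Between combination and estradiol the count was 2 without tamoxifen array 1 or 2. The interaction passed for 8, of which 2 were positive and 6 negative, beside 4.77% and 6.55% of all genes. PCSK5 had an interaction of -2.09 (SE 0.36, adjusted p = 0.00415), HEY1 of -1.37 (SE 0.32, adjusted p = 0.0163), GDF11 of -1.61 (SE 0.40, adjusted p = 0.0217) and MSX2 of -1.91 (SE 0.49, adjusted p = 0.0257). For each of these genes, the difference that estradiol made on top of tamoxifen was below the one it made alone. The MSX2 call was lost without tamoxifen array 1 or combination array 3, and the GDF11 call without estradiol array 4 and tamoxifen array 1 together. The count of 8 was 3 without combination array 3, 4 without estradiol array 1 or 2, tamoxifen array 1 or combination array 1, 5 without combination array 2 or 4, 12 without tamoxifen array 2 and 13 without estradiol array 3.

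**Figure D4:**
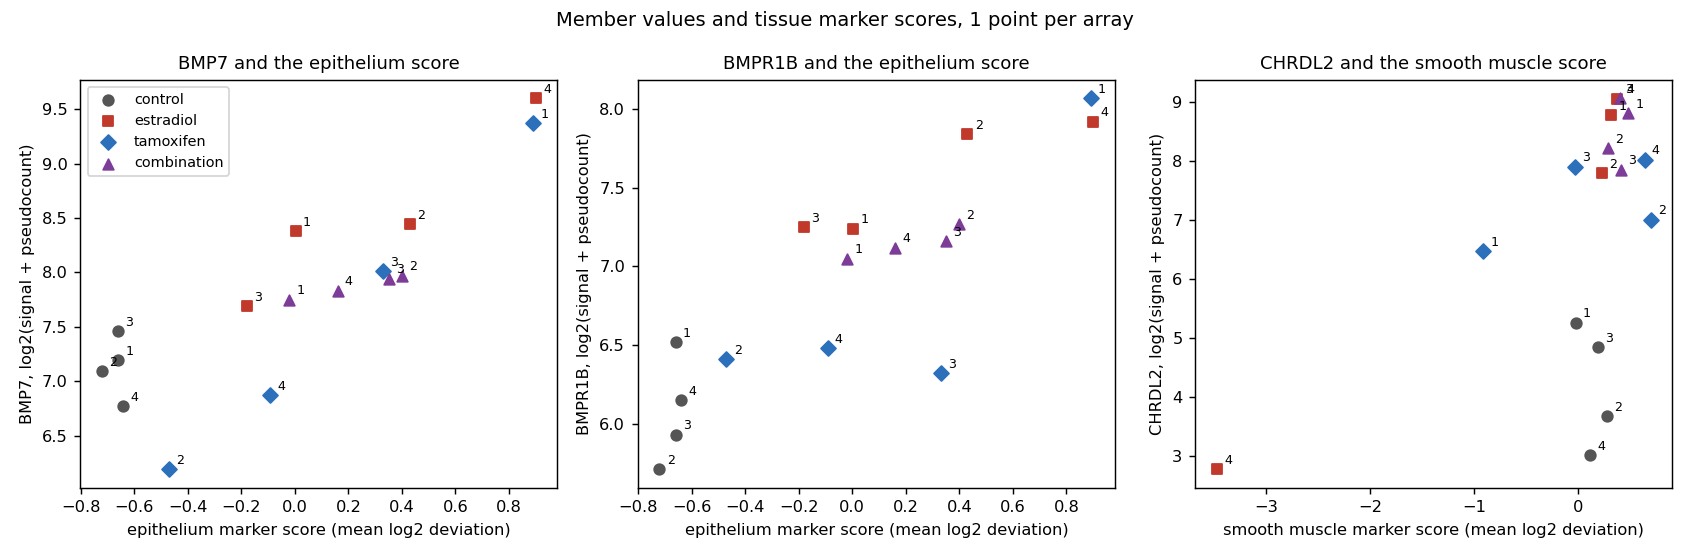
Log2(signal + pseudocount) of BMP7 and BMPR1B against the epithelium marker score and of CHRDL2 against the smooth muscle marker score, 1 point per array with its replicate number, coloured and shaped by arm. Estradiol array 4 has the lowest smooth muscle score, -3.47, and a CHRDL2 signal of 2.02, and the treated arrays with high epithelium scores have high BMP7 signals.

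The genes with the profile most like BMPR1B over the 16 arrays, by Pearson's r of log2 values among 10705 genes, were SCYL2 (r = 0.931), RASEF (0.921), ADAMTS6 (0.904), CLDN10 (0.899) and ABCC1 (0.898). Those most like CHRDL2 were GAL3ST3 (r = 0.936), POPDC2 (0.920), COL12A1 (0.913), SFRP1 (0.911) and HACD1 (0.910). For BMP7 they were LOC700558 (r = 0.936) and SMARCC1 (0.934), and for BMP2 CNTNAP4 (r = 0.919) and MMP14 (0.880). For BMP4 they were ZSWIM8 (r = 0.823) and KCTD11 (0.815), and for FST DTNBP1 (r = 0.811) and ITPK1 (0.810). These values describe 16 arrays in 4 arms that share treatment, tissue makeup and scaling, and carry no test.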

How the data were processed

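Total RNA of frozen endometrium from 16 animals was hybridised to 1 array each. The deposited values are MAS5 signal intensity values on a linear scale; GCOS and the Affymetrix Expression Console with MAS5 made them, per the submitters' processing notes, which give no versions. The mean after trimming 2% at each end was 250.0 on every array, so no further scaling was applied. The number of arrays limits the precision. Symbols came from the platform annotation: 24969 probe sets had 1 symbol, 361 several and 27535 none, and no gene was named from a probe set with several.

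After 99 control probe sets were left out, values were taken to log2(signal + 4.803), the pseudocount being the 10th percentile of all values. The dimmest 40% by mean over the 16 arrays were dropped, and 31660 probe sets with means of 5.36 or more stayed. limma 3.58.1 in R 4.3.3 was fitted to all arrays with 1 mean per arm, 12 residual degrees of freedom and eBayes with a variance trend; adjusted p is Benjamini-Hochberg over all kept probe sets, with a threshold of 0.05. A gene was followed through its kept probe set of highest mean, and the script was tested on simulated data. The members and lists were chosen with earlier results of these data known. Named pathway genes were up to 4 of each list past the threshold with the smallest p in each comparison with control. In each other comparison they were up to 4 over all lists together. ID1, ID3, ID4, SMAD6 and SMAD7 were named throughout, and every other name was chosen after its values were seen. Alternatives varied the pseudocount, filter, normalization, variance model, arrays, replicate block and probe set rule.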

Additional observations from a re-analysis of the deposited data

Results flagged for a closer look

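In 108 groups of 4 arrays, 3 had an array whose gap to the next, as a share of the arm's range, was above Dixon's 95% critical value; chance flags about 1 in 20 such groups. BMPR1B on tamoxifen array 1 had a log2 value of 8.07 where the other 3 arrays of that arm lay between 6.32 and 6.48. ACVR1 on estradiol array 4 had 10.38 where the others lay between 10.47 and 10.49. BMP1 on control array 3 had 7.89 where the others lay between 8.40 and 8.48.

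The effect of estradiol with tamoxifen differed from that without it, by the interaction term in limma, for 8 pathway genes. The interaction was -2.09 for PCSK5 (adjusted p = 0.00415), -1.37 for HEY1 (0.0163), -1.61 for GDF11 (0.0217), -1.91 for MSX2 (0.0257), -2.25 for WNT4 (0.0469), -0.45 for PPM1A (0.0492), 0.95 for ATOH8 (0.0312) and 1.31 for RGMB (0.0466). RGMB is a co-receptor for BMPs and was named after its values were seen. Leaving out 1 of the 16 arrays at a time, the call was lost 13 times for WNT4, 13 for PPM1A, 12 for RGMB, 6 for ATOH8, 2 for MSX2 and 0 for PCSK5, HEY1 and GDF11. The GDF11 call was lost without estradiol array 4 and tamoxifen array 1 together, at -1.19 (limma, adjusted p = 0.0533). So were those of WNT4, RGMB and ATOH8. GDF11 passed the filter on dim probe sets through the treated arms. For BMP4, every estradiol array lay on the lower side of the control mean and every combination array on the higher side of the tamoxifen mean, with mean differences of -0.37 and 0.47. The difference between them, the interaction, was 0.84 (SE 0.36) and did not pass the threshold in limma.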

How the results depend on the processing

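Of the named pathway genes that passed, all kept their direction under the alternatives except PPM1A, which with the mean of all kept probe sets of a gene was -0.016 with estradiol and 0.01 for the interaction. The pathway count between combination and estradiol, 1 gene, was 0 with no filter, with no variance trend, with the replicate block, with only the arrays of the arms compared and without estradiol 4 and tamoxifen 1. The interaction count of 8 was 5 with no filter, with no variance trend and without estradiol 4 and tamoxifen 1. Leaving out 1 array at a time gave counts from 13 to 20 with estradiol, 3 to 9 with tamoxifen, 5 to 13 with the combination, 0 to 2 between combination and estradiol, 0 to 2 between tamoxifen and estradiol and 3 to 13 for the interaction. The replicate block gave 17 genes with estradiol, 6 with tamoxifen, 9 with the combination and 6 for the interaction. Numbers are shared by title only: in 0 of 24 same-numbered pairs did deviations from the arm means correlate above 0.1 (r from -0.266 to 0.095), and 1 of 16 arrays correlated best with its own number. Dim probe sets, such as those of GREM1 and the controls of CHRDL2, limit what can be read. Probe sequences were not used here, so probes were not checked against cynomolgus transcripts.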
